A study of Mus musculus with 5 samples.

Results

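Oligodendrocytes, the cells that wrap axons of the central nervous system in myelin, made up 632 of the 9505 nuclei kept from 5 single-nucleus RNA sequencing (snRNA-seq) libraries of the mouse brain. The members were chosen from their own transcripts. A kept nucleus was counted as an oligodendrocyte when it held at least 5 summed unique molecular identifiers (UMIs, 1 for each captured RNA molecule) of 9 oligodendrocyte genes (St18, Mog, Mag, Mobp, Ermn, Opalin, Aspa, Ugt8a and Cldn11), at least 2 of them from St18, at most 3 UMIs of the microglial genes P2ry12, Siglech and Gpr34 together, and at most 3 UMIs of the astrocyte genes Gpc5 and Slc4a4 together. By library there were 272 and 92 such nuclei in R241E replicates 1 and 2, and 89, 64 and 115 in WT replicates 1 to 3.

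Each library came from 1 mouse. The 2 R241E mice carried 1 allele of Cgas with the R241E change and 1 wild-type allele, together with the Tmem119-creERT2 driver, and the 3 WT mice carried the same driver with wild-type Cgas. Tmem119 is a gene of microglia, and the driver was made to switch the allele in these cells and in related macrophages, so oligodendrocytes are not among its intended targets. The enzyme cGAS detects DNA in the cell and acts by way of STING to raise type I interferon. The nucleosome normally keeps nuclear cGAS silent, and R241E loosens that contact. Age and tamoxifen are not in the labels. The study's methods give tamoxifen injections of young adult mice as the way the allele was switched on. The sample titles name wild-type Cgas for the controls, as the study's methods do, whereas its results name mice heterozygous for the allele. The titles were followed, and UMI counts of Cgas cannot tell the alleles apart. Hippocampus is the tissue in the labels, which call the sorted nuclei microglia, and the study's methods name brain tissue without a region. A text on H151 and DMSO accompanies every sample without assigning either, and was not used. According to the study's methods, nuclei were sorted as negative for NeuN, a neuronal nuclear protein, and for Olig2, a nuclear protein of the oligodendrocyte lineage. The oligodendrocytes described here are therefore nuclei that came through a sort set against them, and they may not stand for all oligodendrocytes of the tissue.

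Mature oligodendrocytes make large amounts of a few myelin proteins, such as myelin basic protein, and of the cholesterol and galactolipids of myelin. In healthy brain they carry little major histocompatibility complex (MHC) class I on their surface. Type I interferon binds the receptor made of IFNAR1 and IFNAR2, which leads to the assembly of the transcription factor ISGF3, in which STAT2 and IRF9 take part, and ISGF3 switches on antiviral genes and the genes of class I antigen presentation.

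The libraries held 4183709 to 10130667 UMIs. The summed oligodendrocyte nuclei of the R241E libraries held 1299439 and 288493 UMIs and those of the WT libraries 324199, 284187 and 379742, with medians of 4599 and 2509 UMIs per nucleus in R241E and 3678, 4192 and 2836 in WT. Levels are given as CPM, the UMIs of a gene scaled to a common total of UMIs per library. R241E replicate 1 supplied most of the R241E UMIs, and 1 UMI was worth 0.770 CPM there and 2.63 to 3.52 CPM in the other libraries. Between libraries, 13 barcodes recurred, none of them among the oligodendrocytes. No 2 libraries held identical values. No batch or date is given in the labels.

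Markers that the selection did not use went with the label. Mbp, encoding myelin basic protein, was at 3142 and 2964 CPM in R241E against 3639.7, 3308 and 3002 CPM in WT, and Sox10, the transcription factor of the lineage, at 374 and 329 CPM in R241E against 416, 341 and 345 CPM in WT. These genes were abundant in every library, with the genotypes overlapping. Olig2 was low, at 20.8 and 10.4 CPM in R241E against 15.4, 14.1 and 7.90 CPM in WT. Of 14 precursor genes, 2 passed the filter on low counts and neither was called. Lrrtm3, an adhesion gene, was at 1129 and 1134 CPM in R241E against 1030.2, 1147 and 945 CPM in WT and made up most of the list's sum of 1220 and 1199 CPM in R241E and 1095, 1274 and 993 CPM in WT, and Lhfpl3 was at 46.9 and 17.3 CPM in R241E against 30.8, 3.52 and 18.4 CPM in WT. Pdgfra, the growth factor receptor of precursors, had 3 and 0 UMIs in R241E against 0, 14 and 0 in WT, and all 14 WT UMIs lay in 1 nucleus of WT replicate 2. Gpr17 and Bmp4, which mark newly formed oligodendrocytes, had 1 UMI each over all libraries. The 20 microglial markers outside the selection summed to 419 and 541 CPM in R241E and 287, 630 and 629 CPM in WT, beside 16871 to 20433 CPM in nuclei selected as microglia from the same libraries. The 14 astrocyte markers summed to 263 to 345 CPM and the 16 vascular and fibroblast markers to 18.5 to 95.0 CPM. Neuronal markers stood at 276 and 482 CPM in R241E and 219, 229 and 274 CPM in WT, highest in R241E replicate 2. Few nuclei lay at the edges of the selection. There were 2 nuclei at exactly 5 summed UMIs of the 9 genes and 5 just outside at 4, 15 at exactly 2 UMIs of St18 and 28 left out for fewer, and 15 left out for more than 3 microglial UMIs.

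Oligodendrocytes of R241E mice carried more transcripts of MHC class I antigen presentation, of Stat2 and Irf9 of the ISGF3 complex and of a small set of other interferon-linked genes than those of WT mice, while myelin genes, lipid synthesis genes and lineage transcription factors gave no call. With edgeR's quasi-likelihood test on UMI counts summed per library and Benjamini-Hochberg adjustment, 14 genes were higher and 1 was lower in R241E at an adjusted p under 0.05, of 5587 genes tested. The share called was 0.251% of tested genes in the higher direction and 0.0179% in the lower direction. Before adjustment, 268 genes had p under 0.05. In all 15 called genes both R241E libraries lay outside the range of the 3 WT libraries, which held for 8.84% of tested genes in the higher and 9.15% in the lower direction. DESeq2's Wald test, run on all 18378 genes with a UMI and so without that filter, called 3 genes. These were H2-D1 and Ifi27l2a of the genes above, and Ifit3, which was too low for the filter. Run on the same 5587 genes as the main test, an alternative chosen after seeing the data, DESeq2 called 6 of the 15, H2-D1, H2-K1, Ifi27l2a, Parp12 and Cacna2d1 among them, and no other gene.

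**Figure D1:**
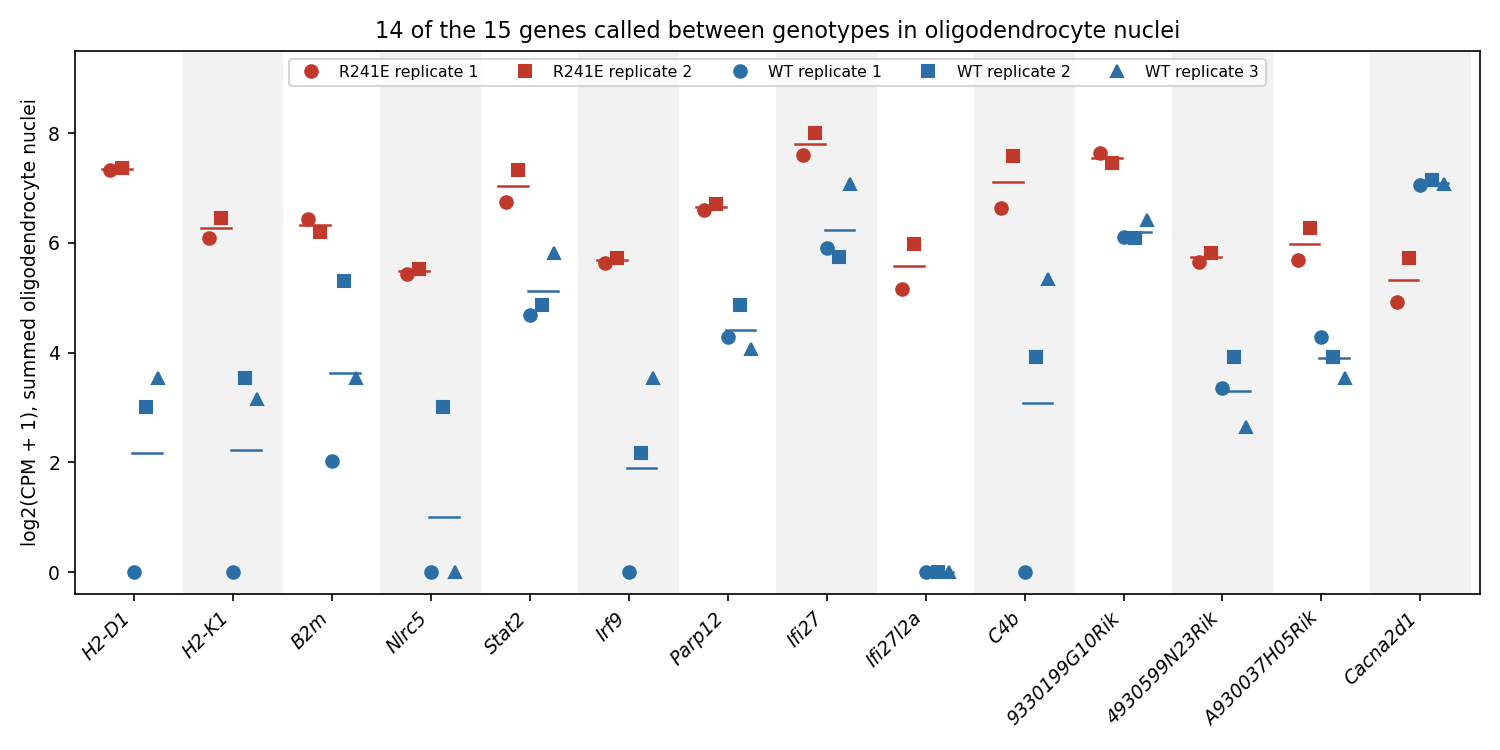
Level of 14 of the 15 called genes in the summed oligodendrocyte nuclei of each library, as log2(CPM + 1), with R241E in red, WT in blue and a line at each group's mean of the plotted values. All genes shown are separated between genotypes in every library, and H2-D1 lay at 160.1 and 163 CPM in R241E against at most 10.5 CPM in WT.

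The class I molecule consists of a heavy chain, encoded here by H2-D1 and H2-K1, and a light chain encoded by B2m. H2-D1 was at 160.1 and 163 CPM in R241E against 0, 7.04 and 10.5 CPM in WT. Those levels rest on 208 and 47 UMIs in R241E against 0, 2 and 4 in WT, and the genotypes were far apart (log2 difference 4.68, SE 0.42, adjusted p = 3.25e-07). Its p was the lowest of all genes tested. The SE of an edgeR difference is here its absolute size divided by the square root of the F statistic of the test, and not a fitted standard error. DESeq2's own SE on the same genes was larger for sparse genes, at 0.70 for H2-D1, 0.90 for Irf9 and 1.21 for Nlrc5. H2-K1 was at 66.95 and 86.7 CPM in R241E against 0, 10.6 and 7.90 CPM in WT (log2 difference 3.55, SE 0.51, adjusted p = 0.000786). For B2m the levels were 85.4 and 72.8 CPM in R241E against 3.08, 38.7 and 10.5 CPM in WT (log2 difference 2.30, SE 0.45, adjusted p = 0.0141). WT replicate 2 came closest to the R241E libraries for B2m, and it was also the library with the fewest oligodendrocytes free of UMIs of the microglial selection genes, 44 of 64, beside 85 of 92 in R241E replicate 2, 85 of 89 in WT replicate 1 and 98 of 115 in WT replicate 3. Scaled by the ratio of microglial markers described below, the microglial B2m level came to 3.60 CPM in WT replicate 2 and 4.87 CPM in WT replicate 3. Whether such UMIs account for the B2m level was not tested. Nlrc5, a transactivator that binds class I promoters and switches on these genes, was at 42.3 and 45.1 CPM in R241E against 0, 7.04 and 0 CPM in WT (log2 difference 4.26, SE 0.80, adjusted p = 0.0114). As 2 UMIs were all that the WT libraries held, the summed ratio of 21.2 had a 95% counting interval of 5.64 to 178. In RefSeq on GRCm38.p6, H2-K1 (33996012 to 34000619), C4b (34728139 to 34743902) and H2-D1 (35263094 to 35267497) lie near each other on chromosome 17, and B2m lies on chromosome 2 (122147687 to 122153082). The UMIs of H2-D1 lay in 122 and 31 oligodendrocyte nuclei of the R241E libraries, with at most 8 in a single nucleus.

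Of the 23 class I presentation genes in the list, all of them in the files, 6 passed the filter on low counts, 4 were called higher and none was called lower. Over all tested genes, 0.251% were called higher. A gene that passes that filter through the R241E libraries alone had to differ, so the median log2 difference of the 6 (2.92, beside -0.01 over all tested genes) is given as a description. The same caution holds for the counts and medians of the other lists below. Pdia3 and Canx, chaperones that fold the heavy chain and other proteins, passed with differences of -0.22 and 0.05 and were not called. Without a filter 22 members could be tested and 5 were called higher, where the share of all 18378 genes called higher was 0.245% and lower 0.0381%. The fifth was H2-T23, a nonclassical class I heavy chain, with 28 and 10 UMIs in R241E against 0, 0 and 0 in WT, at least 7.88-fold higher over the summed libraries against a floor of 3 UMIs for the WT group. The peptide transporter genes stayed sparse, with 6 and 6 UMIs in R241E against 0, 0 and 1 in WT for Tap1 and 9 and 5 UMIs in R241E against 0, 1 and 3 in WT for Tap2. The immunoproteasome genes Psmb8, Psmb9 and Psmb10 had at most 8 UMIs in either genotype. At this depth, differences of these low members were not detectable.

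Stat2 and Irf9, which encode parts of ISGF3, were among the genes called. Stat2 was at 106 and 159 CPM in R241E against 24.7, 28.1 and 55.3 CPM in WT (log2 difference 1.75, SE 0.31, adjusted p = 0.00617). Irf9 was at 48.5 and 51.99 CPM in R241E against 0, 3.52 and 10.5 CPM in WT (log2 difference 3.25, SE 0.62, adjusted p = 0.0126). WT replicate 3 was the highest of the WT libraries for both genes and still lay below both R241E libraries. The receptor genes Ifnar1 and Ifnar2 did not pass the filter, with 23.1 and 51.99 CPM in R241E against 15.4, 14.1 and 13.2 CPM in WT for Ifnar1 and 30.01 and 48.5 CPM in R241E against 21.6, 21.1 and 18.4 CPM in WT for Ifnar2. In both genes the R241E libraries lay above the WT libraries, without a test. Kinases and other factors of the pathway that were tested did not pass: Jak2 differed by 0.19, Tyk2 by -0.65, Stat3 by -0.02, Irf2 by 0.01 and Ptpn2 by 0.45 on the log2 scale. Of the 18 signalling genes, 8 were tested, 3 were called higher and none lower, with a median of 0.32. The share of all tested genes called higher was 0.251%. Usp18, a brake on the receptor that is itself interferon-induced, had 27 and 16 UMIs in R241E against 0, 2 and 0 in WT and was called higher in the fit without a filter, the 4th member called there.

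Among interferon effectors, the products that act against viruses, Parp12, Ifi27 and Ifi27l2a were called. Parp12, a zinc-finger ADP-ribosyltransferase, was at 95.4 and 104 CPM in R241E against 18.5, 28.1 and 15.8 CPM in WT (log2 difference 2.26, SE 0.33, adjusted p = 0.000786). Ifi27, a small membrane protein gene, was already expressed in WT, at 193 and 257 CPM in R241E against 58.6, 52.8 and 134 CPM in WT (log2 difference 1.36, SE 0.27, adjusted p = 0.0206). Its neighbour and relative Ifi27l2a had no UMI in any WT library and 34.6 and 62.4 CPM in R241E (adjusted p = 0.00305), at least 13.1-fold higher over the summed libraries. It belongs to the interferon list of the study. In the RefSeq annotation of GRCm38.p6 the spans of Ifi27 (chromosome 12, 103434189 to 103440245) and Ifi27l2a (chromosome 12, 103433873 to 103443680) overlap, so the split of reads between the 2 genes is uncertain. Of 39 effector genes listed, 37 were in the files and 4 passed the filter. Parp12 and Ifi27 were called, where 0.251% of all tested genes were called higher. Herc6, a ubiquitin-type ligase, differed by 1.95 and Tor1aip1, a nuclear envelope protein, by 0.60, neither of them called. Without a filter, 36 could be tested, and 34 had a higher fitted level in R241E, beside 10224 of all 18378 genes. Of the 36, 6 were called higher, adding Ddx60, Gbp3, Irgm1 and Irgm2, where 0.245% of all 18378 genes were called higher. Ddx60, a helicase linked to RNA sensing, had 84 and 7 UMIs in R241E against 0, 2 and 2 in WT. Irgm1 and Gbp3, GTPases of intracellular defence, had 25 and 5 UMIs in R241E against 0, 0 and 0 in WT and 24 and 5 UMIs in R241E against 0, 0 and 0 in WT, at least 6.22-fold and 6.02-fold higher. Of the 37 effector genes, 9 had UMIs in R241E and none in WT, and 0 the reverse. Over all genes that held for 2572 and 1212 genes, and the R241E libraries also held more UMIs.

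**Figure D2:**
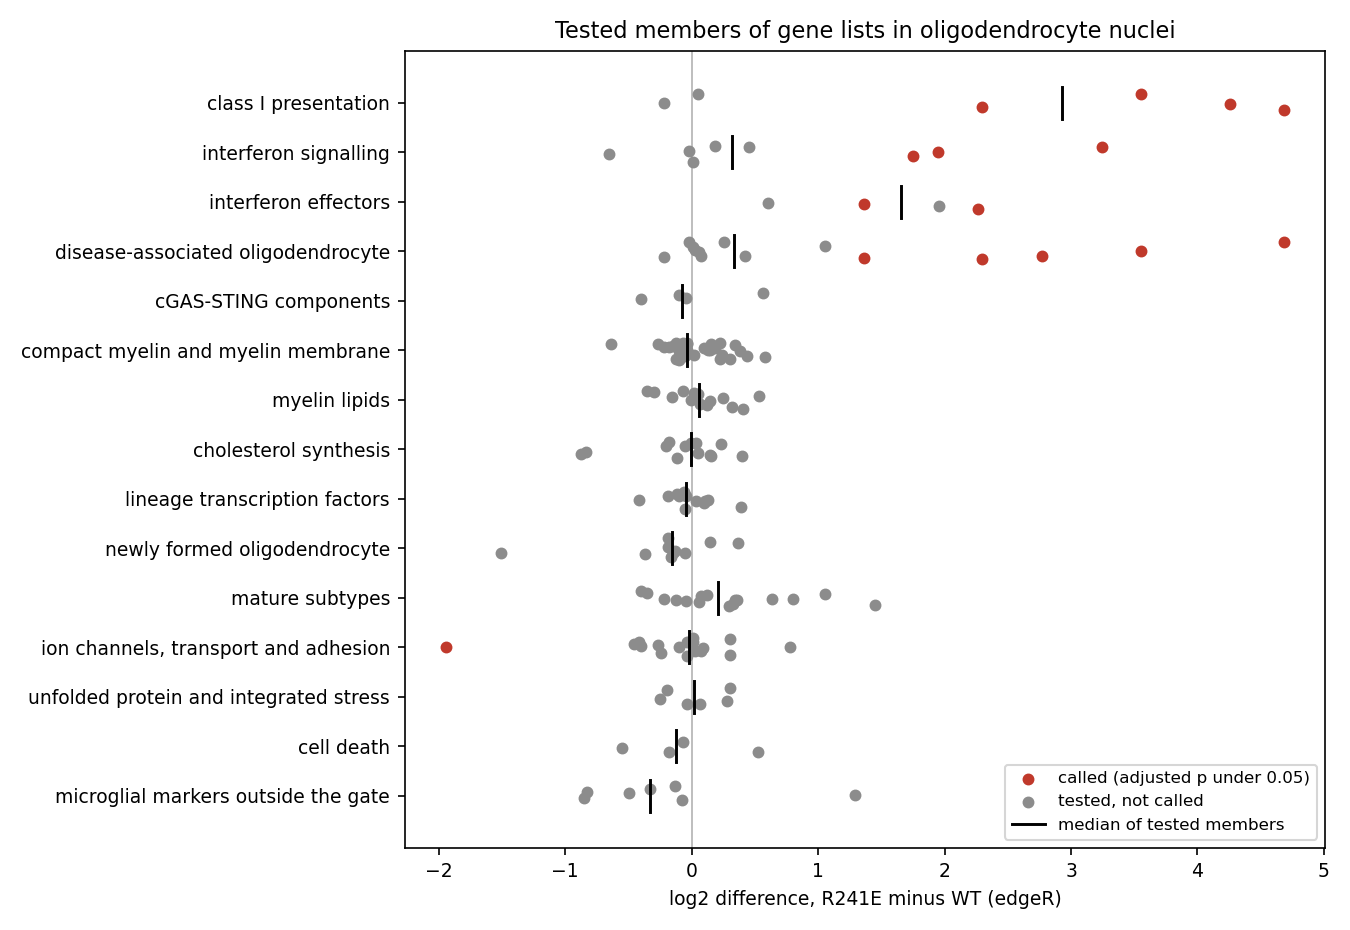
Fitted log2 difference between R241E and WT of each list member that passed the filter on low counts, 1 row per list, with called genes in red and a bar at the median of the members that passed. Called genes sit in the class I, interferon and disease-associated lists and, for Cacna2d1, in the list of channels, while the myelin, lipid and lineage lists centre near 0.

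The interferon list of the study, 28 genes it used to score microglia, was summed so that members below the filter counted as well. List UMIs per 10000 UMIs of oligodendrocytes were 7.43 and 9.77 in R241E and 4.07, 4.22 and 4.69 in WT, a difference of 4.28 with both R241E libraries above the WT range. The exact permutation test over the 5 libraries, two-sided, gave p = 0.1, the smallest that 2 against 3 libraries allow. Chic1, an abundant member, was at 53.1 and 51.99 CPM in R241E against 43.2, 35.2 and 65.8 CPM in WT, with the genotypes overlapping. Of the 28 genes 7 were tested, and Stat2, Nlrc5 and Ifi27l2a were called, where 0.251% of all tested genes were called higher. Rnf213 and Xaf1, the tested members with the next largest differences, differed by 1.04 and 0.53 and were not called. Ifit3, an interferon-induced protein that binds viral RNA complexes, had 35 and 22 UMIs in R241E against 0, 0 and 0 in WT. These UMIs lay in 11 and 5 nuclei, with up to 7 and 10 in a single nucleus, so Ifit3 was less evenly spread than H2-D1. Ifit1 had 16 and 9 UMIs in R241E against 0, 0 and 0 in WT, and Irf7 15 and 3 UMIs in R241E against 0, 0 and 0 in WT. Isg15 reached 5 and 2 UMIs in R241E and none in WT.

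Promoters of the called class I and interferon genes were searched for the interferon-stimulated response element, read as GAAA, any 2 bases and GAAA on either strand, from 250 bases before to 50 after the annotated start. RefSeq promoter windows of GRCm38.p6 were at hand for 6 of the 10 genes: H2-D1, H2-K1, B2m, Stat2, Irf9 and Parp12. The element was found in 2 of the 6. It was found in 3.44% of all 32851 promoter windows and at 2.93% of the tested genes with a window. The 30 bases around each match are shown because both genes were called, with the match in capitals, 5′ to 3′ on the strand of the gene. That of Stat2, chr10:128270266-128270295 on the plus strand, begins 222 bases before the start and reads on the opposite strand, and that of B2m, chr2:122147538-122147567 on the plus strand, begins 139 bases before it.
Stat2: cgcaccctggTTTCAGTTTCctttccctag
B2m: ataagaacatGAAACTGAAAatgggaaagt
A match is a description of these letters and not evidence of binding. No match in the other windows says only that these letters were not in them. The other genes were not searched.

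After each nucleus had been thinned to 1000 UMIs, so that depth did not enter, 47 of 271 and 17 of 90 R241E oligodendrocytes held a UMI of H2-D1 or H2-K1, or 17.3% (exact 95% binomial interval 13.03 to 22.4) and 18.9% (11.4 to 28.5). In WT the counts were 0 of 88, 1 of 64 and 0 of 112. With a limit of 3 counts of the total, a count of 0 allows a share of up to 3.41% and 2.68% in WT replicates 1 and 3 (upper ends of the exact interval 4.11% and 3.24%), and the share in WT replicate 2 was 1.56% (0.0396 to 8.40). Intervals and limits cover counting error only. The difference of the means was 17.6 percentage points (exact permutation p = 0.1, the smallest possible). Without thinning the shares were 55.1% and 41.3% in R241E and 0%, 4.69% and 6.09% in WT. Thinned nuclei with a UMI mostly held 1: in R241E, 36 and 15 nuclei had 1 UMI and 5 and 1 nuclei had at least 3.

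Among neurons of the same libraries, a class in which these genes are usually low, the thinned shares were 7.45% and 6.90% in R241E and 3.28%, 3.28% and 4.26% in WT, with median depths before thinning of 3667 to 6099 UMIs beside 2509 to 4599 in oligodendrocytes. The neuronal share was thus itself higher in the R241E libraries. The R241E shares of oligodendrocytes lay above the neuronal shares of the same libraries, although the counting intervals of the classes touched (3.05 to 14.7 and 2.57 to 14.4 in neurons). The WT shares of oligodendrocytes lay below the neuronal ones. The part of free RNA in the oligodendrocyte shares was not tested. In astrocytes the shares were 20.3% and 5.22% in R241E and 0%, 4.08% and 3.77% in WT, so that R241E replicate 2 was much lower there than in oligodendrocytes, and in microglia they were 60.5% and 50.7% against 8.30%, 10.6% and 11.3%.

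**Figure D3:**
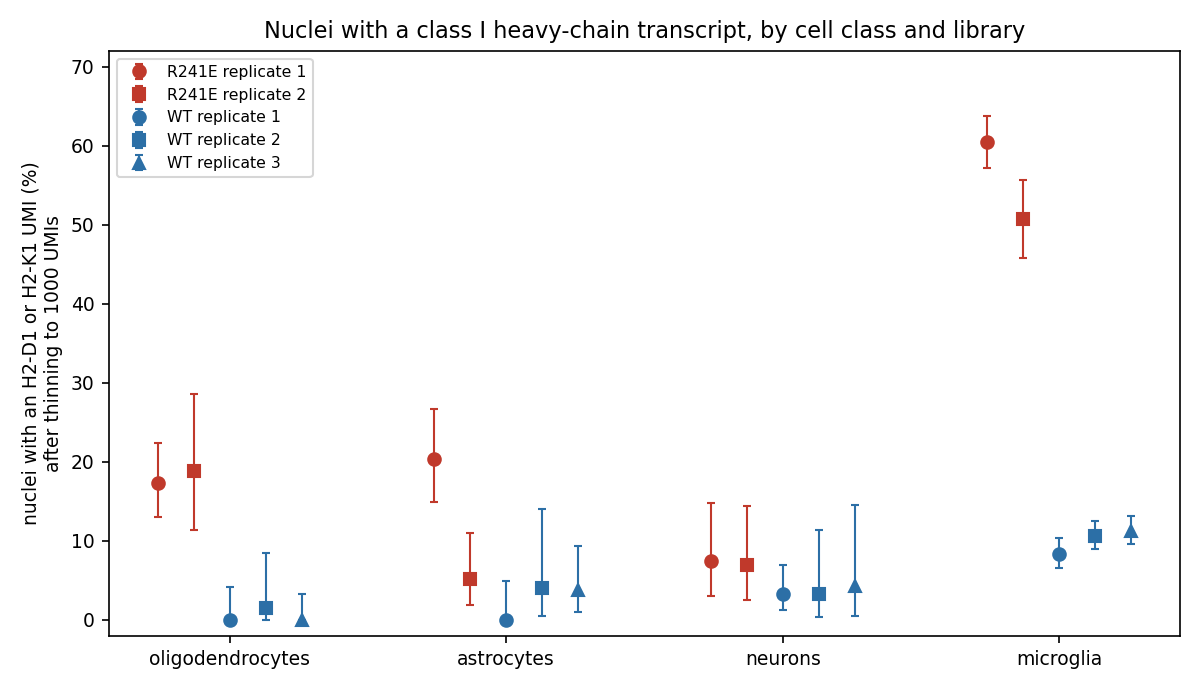
Percent of nuclei with at least 1 UMI of H2-D1 or H2-K1 after thinning to 1000 UMIs, by cell class and library, with exact 95% binomial intervals for counting error. R241E oligodendrocytes lay at 17.3% and 18.9%, above every WT oligodendrocyte library, and R241E microglia were highest at 60.5% and 50.7%.

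Class I transcripts were compared between R241E nuclei with and without 5 genes that vary among oligodendrocytes. In R241E replicates 1 and 2, 15.4% and 17.2% of nuclei with an Apod UMI held a class I UMI after thinning, and 20.2% and 21.9% of nuclei without. For Ptgds the shares were 20.8% and 20.0% with and 16.0% and 18.5% without, and for Il33 25.0% and 29.4% with and 15.9% and 16.4% without. For Opalin they were 22.2% and 7.69% with and 16.6% and 20.8% without. Among nuclei with a Klk6 UMI, class I UMIs were found in 3 of 25 and 0 of 11, which allows up to 27.3%, and in 17.9% and 21.5% of nuclei without. The exact 95% intervals overlapped in every pair. They cover counting error only, and overlap is not a test of a difference, which was not run.

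Microglial transcripts were present in the oligodendrocyte counts at a low level. The 20 microglial markers in oligodendrocytes amounted to 2.19% and 2.65% of their level in microglia in R241E and to 1.70%, 3.51% and 3.48% in WT, with the genotypes overlapping. Of the 20, 7 passed the filter and none of these was called. Without a filter all 20 were tested, 6 had a higher fitted level in R241E and Arhgap15 alone was called higher. It had 129 and 19 UMIs in R241E against 9, 5 and 22 in WT. Ly86, with 31 and 9 UMIs in R241E against 4, 3 and 4 in WT, was not called. Neither were Csf1r, C1qa and Tmem119, and Tmem119 had only 13 UMIs in all. For each gene, the level in microglia of the same library was multiplied by that ratio. The result was 12.3 and 14.6 CPM for H2-D1 in the R241E libraries, beside measured levels of 160.1 and 163 CPM. Over the 14 higher genes and both R241E libraries, this scaled level came to between 0% and 19.8% of the measured one, the highest for B2m in R241E replicate 2. Ifi27, C4b and 9330199G10Rik were at a higher CPM in oligodendrocytes than in microglia of the same R241E library. In microglia, Ifi27 was at 57.9 and 44.9 CPM in R241E against 41.8, 48.8 and 53.6 CPM in WT. Among R241E oligodendrocytes without a UMI of any of the 20 markers, 7 of 71 (9.86%) and 8 of 37 (21.6%) held a class I UMI after thinning, and in WT 0 of 37, 0 of 13 and 0 of 37. Among those with such a UMI, 40 of 200 (20.0%) and 9 of 53 (17.0%) did in R241E, and 0 of 51, 1 of 51 and 0 of 75 in WT. When oligodendrocytes with any UMI of the microglial or astrocyte selection genes were left out, 535 nuclei remained, again 14 genes were called higher and 1 lower, and 12 of the 15 were called. Stat2, 4930599N23Rik and A930037H05Rik had adjusted p of 0.0618 to 0.0669 there, with log2 differences of 1.42, 2.62 and 2.08 beside 1.75, 2.46 and 2.04 in all members.

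**Figure D4:**
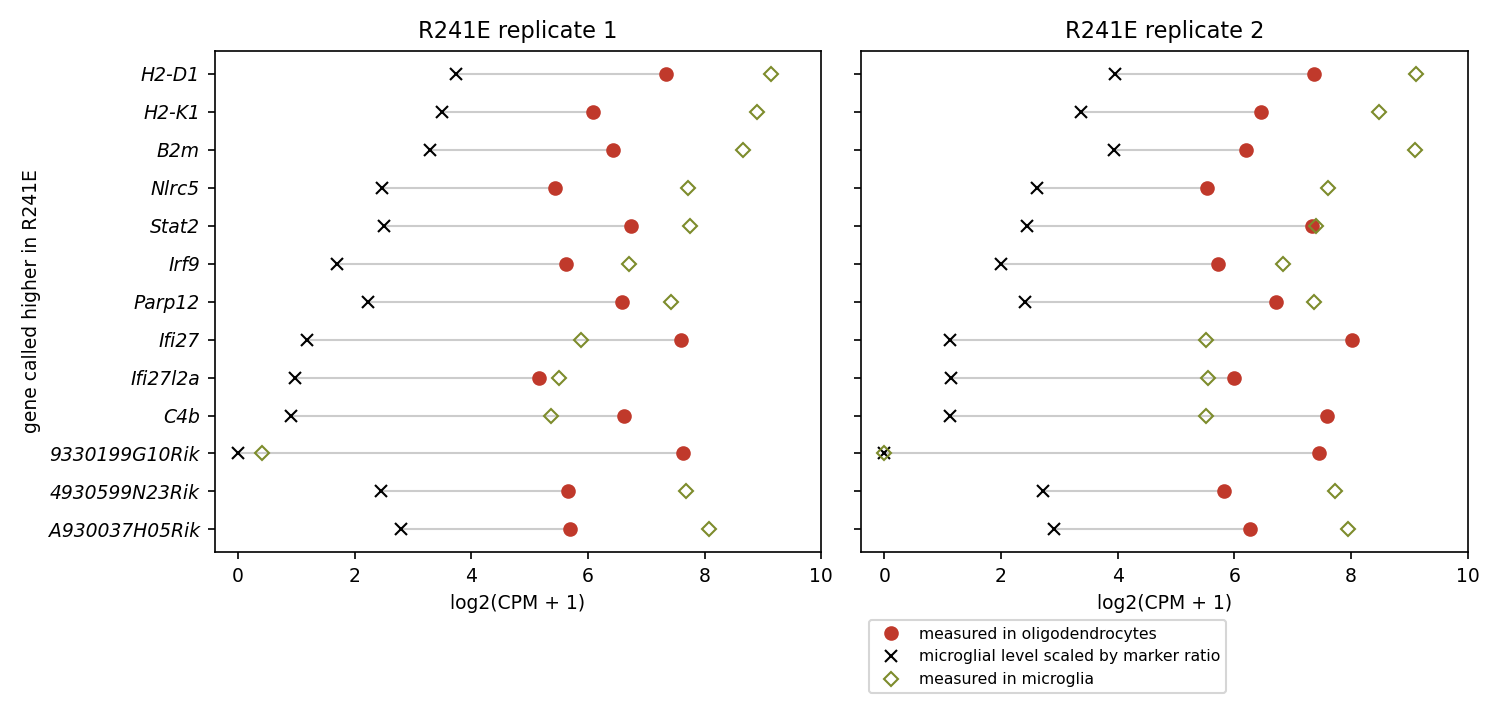
Level in the 2 R241E libraries of 13 of the 14 genes called higher, as log2(CPM + 1): measured in oligodendrocytes (red circles), measured in microglia (open diamonds), and the microglial level multiplied by the ratio of microglial markers between the classes (crosses). Measured levels lie to the right of the crosses for each gene shown, and Ifi27, C4b and 9330199G10Rik lie above microglia in both libraries.

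C4b, a complement component that marks oligodendrocytes in injured and ageing brain, was called higher. It was at 97.7 and 191 CPM in R241E against 0, 14.1 and 39.5 CPM in WT (log2 difference 2.77, SE 0.47, adjusted p = 0.00305). R241E replicate 2 had the highest level and WT replicate 1 had no UMI. DESeq2's Wald test on the filtered genes did not call C4b (log2 difference 3.00, SE 1.53, adjusted p = 0.9998). Of 23 genes linked to disease-associated oligodendrocytes, 14 were tested, where 0.251% of all tested genes were called higher. Of the 14, 5 were called higher: C4b, Ifi27, H2-D1, H2-K1 and B2m. All of these but C4b also belong to the class I or interferon lists. The other tested members did not pass. Klk6, a secreted protease, was at 123 and 156 CPM in R241E against 12.3, 66.9 and 111 CPM in WT (log2 difference 1.05, SE 0.36, adjusted p = 0.646). It was called higher in the fit without a filter, in nuclei free of UMIs of the microglial and astrocyte selection genes (adjusted p = 0.0434) and without WT replicate 3 (adjusted p = 0.0175). Trf, the iron carrier transferrin, was at 1624 and 1785 CPM in R241E against 1440.5, 1449.7 and 1954 CPM in WT, and Spock3, a proteoglycan, at 1544 and 1369 CPM in R241E against 1382, 1281 and 1527 CPM in WT, with overlapping genotypes and differences of 0.07 and 0.06. Sgk1, a stress-responsive kinase, varied widely within genotypes, at 18.5 and 215 CPM in R241E against 30.8, 42.2 and 105 CPM in WT. The 2 R241E libraries were the lowest and the highest of the 5 for Sgk1. Il33, an alarmin of mature oligodendrocytes, was at 176 and 177 CPM in R241E against 302, 141 and 171 CPM in WT, and Serpina3n had 3 UMIs in R241E and 2 in WT.

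Cacna2d1, which encodes an auxiliary subunit of voltage-gated calcium channels, was the 1 gene called lower (chromosome 5, 15934264 to 16374511). It was at 29.2 and 51.99 CPM in R241E against 133, 141 and 134 CPM in WT (log2 difference -1.94, SE 0.28, adjusted p = 0.000786). The 3 WT libraries agreed closely and both R241E libraries lay far below them. The UMIs were seen in 17 of 272 and 10 of 92 nuclei in R241E and in 23 of 89, 21 of 64 and 29 of 115 nuclei in WT. In astrocytes the gene was at 42.5 and 36.9 CPM in R241E against 149.8, 309.5 and 82.4 CPM in WT, below WT in both R241E libraries, without passing the test there (adjusted p = 0.289). Neuronal markers in these astrocytes summed to 2202 and 1628 CPM in R241E and 5761, 4111 and 2142 CPM in WT, and their part in the astrocyte levels of Cacna2d1 was not tested. Of the 27 listed channels, transporters and adhesion genes, 19 were tested. Car14, a membrane carbonic anhydrase, was at 161 and 163 CPM in R241E against 89.5, 95.01 and 97.4 CPM in WT, without overlap and with a difference of 0.78 ± 0.22 (log2 ± SE, adjusted p = 0.313). Kcna1, a potassium channel of the axon border, differed by -0.40 and Piezo2, a stretch-gated channel, by -0.45, neither called. The most abundant members, Pcdh9, Slc24a2, Ptprd and Dlg2, differed by -0.03, 0.01, 0.03 and -0.01. Without a filter, Nrxn3 and Cntnap2, adhesion genes that neurons express strongly, were called higher, in the genotype whose replicate 2 had the highest neuronal marker sum.

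Of the 14 genes called higher, 3 were annotated as long non-coding RNAs. 9330199G10Rik, on chromosome 13 (GRCm38.p6, 19462847 to 19504367), was at 197 and 173 CPM in R241E against 67.9, 66.9 and 84.3 CPM in WT (log2 difference 1.35, SE 0.23, adjusted p = 0.00305). It was at or near 0 in the other glia, with 0 to 2.50 CPM in astrocytes and 0 to 0.649 CPM in microglia. 4930599N23Rik (chromosome 6, 39118473 to 39148312) starts 124 bases beyond the end of the Parp12 span (39086412 to 39118349) and was at 49.3 and 55.5 CPM in R241E against 9.25, 14.1 and 5.27 CPM in WT (log2 difference 2.46, SE 0.50, adjusted p = 0.0206). A930037H05Rik (chromosome 11, 119461200 to 119491235) was at 50.8 and 76.3 CPM in R241E against 18.5, 14.1 and 10.5 CPM in WT (log2 difference 2.04, SE 0.43, adjusted p = 0.0296). The strand setting of the counting is not given in the sources used here.

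Each library was left out in turn. Without R241E replicate 1, 3 of the 15 genes were called (H2-D1, C4b and Stat2), and the other 12 had adjusted p from 0.063 to 0.964. Without R241E replicate 2, 6 were called and the 9 lost had adjusted p from 0.112 to 0.484. These were C4b, Ifi27l2a, Stat2, Nlrc5, Irf9, B2m, Ifi27, 4930599N23Rik and A930037H05Rik. In these fits the lone R241E library is assumed to vary like the WT libraries. Without WT replicate 2, Ifi27 and A930037H05Rik were lost (0.153 and 0.108), and without WT replicate 3, B2m, 4930599N23Rik and A930037H05Rik were lost (0.0532 to 0.0828). Without WT replicate 1 all 15 genes were called. The sizes of 5 named genes moved by over 1.5 times when a WT library was left out. C4b, at a log2 difference of 2.77 with all libraries, was at 4.25 without WT replicate 3 and 2.18 without WT replicate 1. B2m moved from 2.30 to 3.48 without WT replicate 2, and H2-D1 from 4.68 to 5.52 without WT replicate 3. Irf9 moved from 3.25 to 4.73 without WT replicate 3, and it was at 5.07 in nuclei free of UMIs of the microglial and astrocyte selection genes. Nlrc5 moved from 4.26 to 3.62 without WT replicate 3. Both WT UMIs of Nlrc5 lay in WT replicate 2, and without it the fitted value was 7.64, which against WT libraries at 0 is no bound. H2-D1 was called in each of the 14 alternatives in which it was tested. Every one of the 15 genes kept its direction in every alternative that gave a value for it, 199 values in all.

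The myelin programme gave no call in the main test. All 29 genes of compact myelin and the myelin membrane were tested, 14 were higher and 15 lower in R241E, and the median log2 difference was -0.03. Their summed level was 23070 and 23976 CPM in R241E and 22070, 23235 and 23985 CPM in WT. The largest differences were those of Opalin, -0.64 ± 0.25, and Gjb1, a gap junction subunit, 0.58 ± 0.29, with adjusted p of 0.866 and 0.997. Opalin is 1 of the 9 genes of the selection, and so are Mog, Mag, Mobp, Ermn and Cldn11 in this list. Mbp differed by -0.12 ± 0.15, Dock10 by -0.15 ± 0.15 and Prr5l by -0.03 ± 0.18 on the log2 scale. A 2-fold difference of these 3 genes thus lay outside 3 SE, with the SE taken from the F statistic as above.

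Genes of myelin lipids and cholesterol gave no call in the main test either. Of 19 myelin lipid genes in the files, 14 were tested and none was called, with a median of 0.06. Ugt8a, which makes the galactolipid of myelin and belongs to the selection, was at 1014 and 811 CPM in R241E against 909.9, 901 and 816 CPM in WT. Enpp2, an abundant secreted enzyme of mature oligodendrocytes, was at 1592 and 1484 CPM in R241E against 1481, 1579.9 and 1483 CPM in WT, a difference of 0.02 ± 0.16. Scd2, a desaturase, had the largest value among the abundant members, 0.41 ± 0.20 (adjusted p = 0.997). Of 22 cholesterol synthesis genes, 13 were tested, 6 were higher and 7 lower, and none was called. Srebf2, the regulator of the pathway, was at 163 and 208 CPM in R241E against 148, 201 and 142 CPM in WT, and Fdft1, Msmo1 and Cyp51, enzymes of the pathway, differed by 0.14, 0.03 and -0.12.

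Of 19 lineage transcription factors, 12 were tested and none was called, with a median of -0.05. Myrf, which drives myelin genes, was at 149 and 184 CPM in R241E against 179, 165 and 174 CPM in WT. St18, Zeb2, Zfp536 and Sox10 differed by 0.03, 0.13, -0.11 and -0.05, and St18 was part of the selection. Of 15 genes of newly formed oligodendrocytes, 10 were tested and none was called. Bcas1, Enpp6 and Nfasc, the most abundant of them, differed by -0.13, 0.15 and -0.05. No member of the unfolded protein and integrated stress list (6 tested of 18 in the files), of the immediate-early and heat shock list (4 of 16) or of the cell death list (4 of 21) was called. Fos had 1 UMI and Fosb none in any library, while Hspa8, a constitutive chaperone, was at 110.0 and 156 CPM in R241E against 95.6, 102 and 198 CPM in WT. Components of cGAS-STING signalling were sparse. Cgas had 2 and 1 UMIs in R241E against 0, 1 and 0 in WT, and Tmem173, the gene of STING, 1 UMI in R241E replicate 1 and 1 in WT replicate 2. Tbk1, the kinase downstream, was at 117 and 93.6 CPM in R241E against 86.4, 98.5 and 150.1 CPM in WT, and none of the 4 tested members of this list was called. The microglial, astrocyte and neuronal marker lists, with 7, 2 and 4 tested members, had no call, and no member of the vascular or lymphocyte lists passed the filter. Most myeloid inflammatory genes were low, with Ifnb1 and Il1b at 0 in every library, and the members that passed the filter were Apoe, 132 and 125 CPM in R241E against 126, 98.5 and 150.1 CPM in WT, and Ctsb. Ccl5, a chemokine, had 25 and 3 UMIs in R241E against 0, 0 and 0 in WT and was called higher without a filter.

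Genes that vary among mature oligodendrocytes were spread widely between mice of 1 genotype. Of 21 such genes in the files, 16 were tested and none was called. The following were singled out after their values had been seen. Apod, a lipid carrier abundant in older oligodendrocytes, was at 1227 and 1608 CPM in R241E against 401, 697 and 1325 CPM in WT (log2 difference 0.80, SE 0.27, adjusted p = 0.636), and it was called higher in the fit without a filter. WT replicate 3 lay inside the R241E range, and WT replicate 1 was far below it. Klk6 was likewise lowest in WT replicate 1, and Opalin, which marks a different pole, was highest there, at 108 and 146 CPM in R241E against 244, 194 and 132 CPM in WT. Grm3, a glutamate receptor, was at 1364 and 1286 CPM in R241E against 1993, 1714 and 1525 CPM in WT, lower in both R241E libraries (difference -0.40 ± 0.17, adjusted p = 0.973). Hopx was at 38.5 and 65.9 CPM in R241E against 12.3, 21.1 and 18.4 CPM in WT, and S100b, a calcium-binding protein, at 172 and 215 CPM in R241E against 83.3, 134 and 145 CPM in WT, both without overlap and neither called (adjusted p = 0.552 and 0.735). Grm7 varied widely among the WT libraries, at 842 and 506 CPM in R241E against 1181, 222 and 261 CPM in WT.

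**Figure D5:**
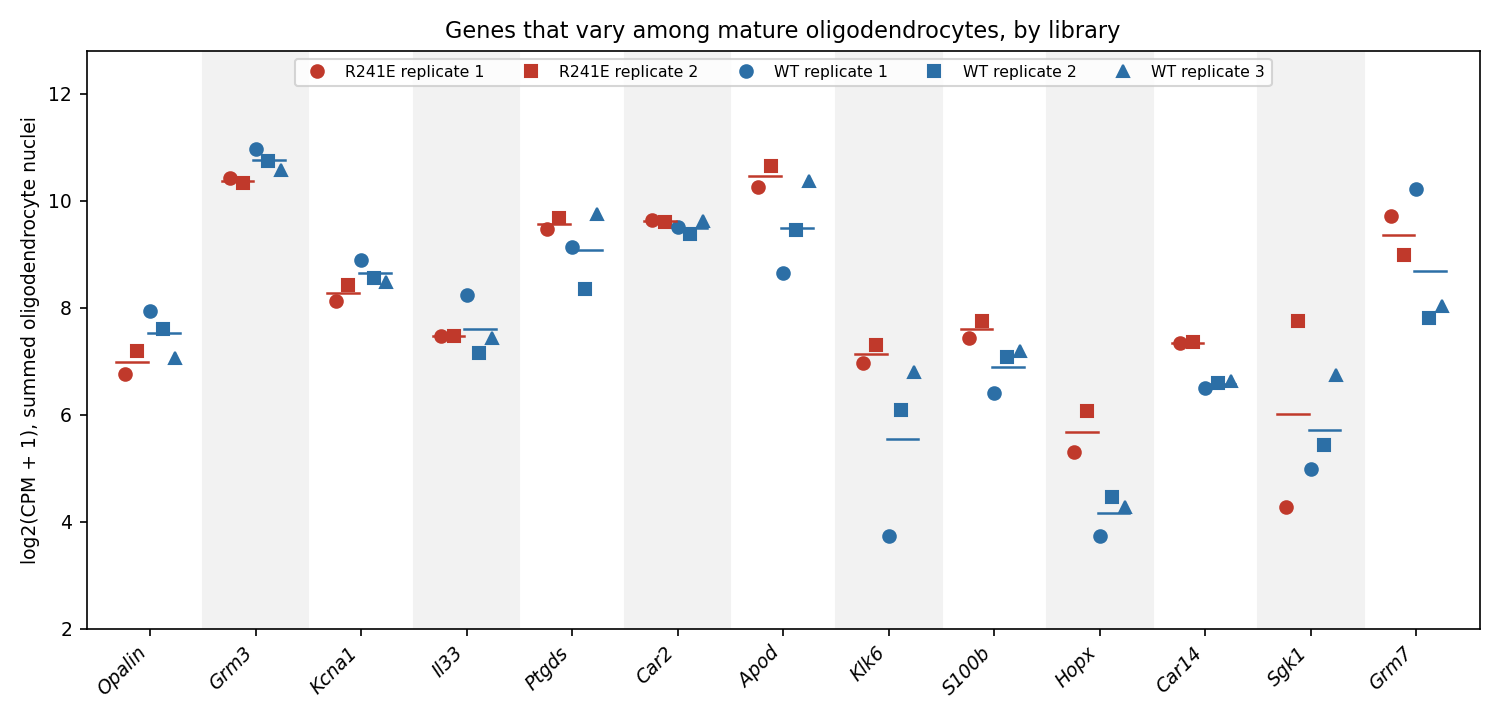
Level by library of 13 genes that vary among mature oligodendrocytes or were singled out in the text, as log2(CPM + 1), with R241E in red, WT in blue and a line at each group's mean of the plotted values. WT replicate 1 has the lowest Klk6, Apod and S100b and the highest Opalin, Grm3 and Il33, and none of the 13 genes was called between genotypes with the filter on low counts, while Klk6 and Apod were called without it.

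The share of oligodendrocytes among kept nuclei was 11.3% and 6.78% in R241E and 5.80%, 3.26% and 5.12% in WT. Such a share depends on the sort and on the numbers of other nuclei. Of nuclei outside the microglial selection, oligodendrocytes made up 17.9% and 9.81% in R241E, beside 12.6%, 9.74% and 11.2% in WT. The genotypes overlapped on that denominator (exact permutation p = 0.6), whereas those of kept nuclei did not overlap (exact permutation p = 0.1, the smallest possible).

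To see whether the genotype effect in oligodendrocytes differed from that in other glia of the same mice, the term for class by genotype was tested on summed counts with library as a block. Against astrocytes (537 nuclei), the effect differed in 4 of 8262 genes, 0.0484% of those tested, and none of the 15 called genes was among them (lowest adjusted p = 0.187). Against microglia (4666 nuclei), it differed in 42 of 12576 genes, 0.334%, again with none of the 15 (lowest adjusted p = 0.0514). A p that misses the threshold does not show that the effects were alike. In microglia, H2-D1 was at 564 and 550.2 CPM in R241E against 43.8, 65.98 and 71.4 CPM in WT, a log2 difference of 3.17 beside 4.68 in oligodendrocytes, and the difference between the effects was 1.59 ± 0.53 (SE). For Ifi27 the microglial levels given above differed by 0.10 and the effect was larger in oligodendrocytes by 1.33 ± 0.32, just short of the threshold. Stat2 differed by 2.14 in microglia and 1.22 in astrocytes.

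Several interferon genes had a larger genotype effect in microglia than in oligodendrocytes. Oas2, an enzyme that makes the activator of RNase L, was at 194 and 138 CPM in R241E against 12.7, 6.53 and 6.82 CPM in WT in microglia and 2.31 and 3.47 CPM in R241E against 0, 3.52 and 10.5 CPM in WT in oligodendrocytes, a difference between the effects of -5.32 (adjusted p = 0.0363). Ifit2 was at 49.5 and 50.1 CPM in R241E against 4.09, 2.42 and 0.649 CPM in WT in microglia and 16.2 and 6.93 CPM in R241E against 6.17, 10.6 and 10.5 CPM in WT in oligodendrocytes (difference -3.82, adjusted p = 0.0436). In oligodendrocytes 1 UMI was worth 0.770 CPM in R241E replicate 1 and 2.63 to 3.52 CPM elsewhere. The oligodendrocyte levels of Oas2, and those of Ifit2 outside R241E replicate 1, thus rest on few UMIs, and the sizes of both differences are uncertain. The lipid carrier gene Apoe, 305 and 492 CPM in R241E against 138, 87.97 and 155 CPM in WT in microglia, also had its larger effect there (-1.44, adjusted p = 0.00906). In the opposite direction, Irgm2, a GTPase of intracellular defence, was at 124 and 119.6 CPM in R241E against 77.8, 72.02 and 86.98 CPM in WT in microglia and 23.9 and 24.3 CPM in R241E against 0, 0 and 2.63 CPM in WT in oligodendrocytes, where the fitted effect was larger by 3.92 (adjusted p = 0.0436), with 1 WT UMI behind it.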

How the data were processed

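Nuclei from 5 libraries (2 R241E, 3 WT, 1 mouse each) had been processed by the authors with Cell Ranger 7.0.0 on mm10, and the deposited values are raw UMI counts for 32285 genes. Nuclei with 200 to 4499 genes, under 10000 UMIs and under 5% mitochondrial UMIs were kept, doublets being treated by these limits and the selection limits alone. Counts of the selected nuclei were summed per library and compared with edgeR 4.0.16 (TMM, filterByExpr, quasi-likelihood test, genotype as the only term, Benjamini-Hochberg adjustment), with DESeq2 1.42.0 as an alternative, without and with that filter. Shares were compared after thinning nuclei to 1000 UMIs, which left out 7 of 632, by exact permutation over libraries. Oligodendrocyte counts between genotypes were also simulated (5504 genes tested), with 1 assumed dispersion for all genes that was not estimated from these libraries. There, 20% of 2-fold and 81% of 4-fold changes were recovered with 3 false calls, so most 2-fold changes could be missed. These rates hold under that assumption only, and do not measure the power for genes that vary more between mice. The members and gene lists were chosen with earlier results of these data known. Genes were named if called (at most 15 a direction), if among H2-D1, Ifi27, C4b, Spock3, Trf and Sgk1, if called or among the 4 most abundant of a list, if markers of the selection or lineage, or Cgas. Some results on single genes are not reported here. Other genes named were chosen after their values were seen. Coordinates and promoters are those of RefSeq on GRCm38.p6.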

Additional observations from a re-analysis of the deposited data

Results flagged for a closer look

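The genotype effect differed between oligodendrocytes and astrocytes of the same libraries in 4 genes by the test of the difference itself (edgeR's quasi-likelihood test with library as a block). The effect in oligodendrocytes minus that in astrocytes was 5.78 for Zfp385b, 5.12 for Cntnap2, 3.53 for Hopx and 2.45 for Cadps on the log2 scale. In astrocytes, Cntnap2 was at 72.2 and 53.03 CPM in R241E against 927, 627 and 19.97 CPM in WT, and in oligodendrocytes at 17.7 and 86.7 CPM in R241E against 3.08, 14.1 and 5.27 CPM in WT. Neuronal markers summed to 2202 and 1628 CPM in the R241E astrocytes and 5761, 4111 and 2142 CPM in the WT astrocytes, and their part in these 4 differences was not tested. Hopx, at 5.93 and 18.4 CPM in R241E against 13.1, 59.5 and 59.9 CPM in WT in astrocytes, was lower in the R241E mean there and higher in oligodendrocytes.

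Against microglia the effect differed in 42 genes, 15 with the higher and 27 with the lower value in oligodendrocytes. Of the listed genes, the difference was -5.32 for Oas2, -3.82 for Ifit2, -2.05 for Chic1, -1.87 for Prr5l, -1.59 for Xaf1 and -1.44 for Apoe, and it was 3.92 for Irgm2 and 2.59 for Cntnap2. Those of Oas2, Ifit2, Irgm2 and Cntnap2 rest on few oligodendrocyte UMIs in most libraries. For Cntnap2 there were 23 and 25 UMIs in R241E against 1, 4 and 2 in WT, and R241E replicate 2 also had the highest neuronal marker sum. Prr5l, an abundant gene of oligodendrocytes, was at 48.5 and 40.4 CPM in R241E against 9.42, 14.3 and 11.4 CPM in WT in microglia and 2216 and 1608 CPM in R241E against 2218, 2083 and 1585 CPM in WT in oligodendrocytes. Oligodendrocytes made up 11.3% and 6.78% of kept nuclei in R241E and 5.80%, 3.26% and 5.12% in WT. The part of oligodendrocyte RNA in the microglial levels of Prr5l and of other genes among the 42 was not tested. Xaf1 was at 90.5 and 94.2 CPM in R241E against 18.01, 24.2 and 18.5 CPM in WT in microglia and 66.95 and 62.4 CPM in R241E against 52.4, 38.7 and 44.8 CPM in WT in oligodendrocytes.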

How the results depend on the processing

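The count of genes called between genotypes was 15 and became 3 with DESeq2 on 18378 genes without a filter, 6 with DESeq2 on the filtered 5587 genes (chosen after seeing the data), 52 without a filter, 68 with a replicate block and 1 after thinning, where 1818 genes were tested, and it ran from 8 to 25 when single libraries were left out (8 without R241E replicate 2, 10 without R241E replicate 1, 14 without WT replicate 2, 23 without WT replicate 3 and 25 without WT replicate 1). Replicate numbers are shared by 2 pairs of libraries, whose deviations from the group means correlated at 0.0706 and 0.00354. The deviations of the 2 R241E libraries mirror each other, so these values cannot tell whether the numbers pair the mice. In the fit with a replicate block, WT replicate 3 has no partner and does not inform the genotype difference. That fit is therefore close to the one without WT replicate 3 (Ifi27 at 1.96 and 1.95), and little is left to estimate the spread. All 15 genes were called with the replicate block, and so were genes without a call in the main test: Mal (0.86, adjusted p = 0.00651), Gjb1 (1.16, 0.0258), Opalin (-0.88, 0.0293), Scd2 (0.67, 0.0235), Klk6 (1.94), Apod (1.39), Ptgds (0.76) and Arhgap15 (1.84, all on the log2 scale) among the listed ones. The count of genes whose effect differed from astrocytes was 4 and became 62 without a filter, 8 in nuclei free of microglial and astrocyte selection UMIs, and 0 to 56 without single libraries. At 0, without R241E replicate 2, edgeR gave 363 genes at an unadjusted p under 0.05. The count against microglia was 42 and became 97, 87 and 29 to 146 in the same order. The cause of these changes was not tested.

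Of 199 values of the 15 called genes under the alternatives, 145 passed the threshold and 54 did not, and none changed direction. The alternatives share libraries, so these values are not independent of each other. With DESeq2 without a filter, 13 of the 15 had adjusted p from 0.0513 to 1.00, and on the filtered genes 9 had 0.0577 to 1.00. The differences in oligodendrocyte share, in nuclei with class I UMIs and in interferon-list UMIs kept their direction under each alternative run, and 5 libraries cannot give a p under 0.1. R241E replicate 1 held most R241E UMIs, and low genes could not be resolved in the other libraries.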

Other observations

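Without a filter on low counts, several of the 52 calls rested on 1 nucleus. Of the 47 UMIs of F13a1, a macrophage gene called lower, 45 lay in WT replicate 3, all in 1 nucleus. In R241E replicate 2, 59 of 61 UMIs of Fgf14 and 47 of 52 UMIs of Kcnd2, both expressed strongly by neurons, lay in 1 nucleus, and so did all 25 UMIs of Car10. All 13 UMIs of Cacng8 lay in 1 nucleus of WT replicate 2. By contrast, the 208 and 47 UMIs of H2-D1 in R241E lay in 122 and 31 nuclei and those of C4b in 68 and 22. The 31 UMIs of Hbb-bs, a haemoglobin gene, in WT replicate 3 were spread over 24 nuclei. These genes were chosen after their values were seen.

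Nuclei with a Klk6 UMI after thinning made up 9.23% and 12.2% of oligodendrocytes in R241E and 0%, 4.69% and 8.04% in WT, where 0 of 88 nuclei allows up to 3.41% as 3 counts of the total (upper end of the exact interval 4.11%). Nuclei with an Apod UMI made up 59.8% and 64.4% in R241E and 23.9%, 35.9% and 59.8% in WT.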
